A study of Homo sapiens with 8 samples.

Results

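The hypoxia response and glycolysis genes are 41 genes chosen by name: HIF factors, their known targets and the enzymes of glycolysis. Every non-control probe that carried one of these gene names was taken, which gave 54 of the 58201 gene probes on the array. Of the 41 genes, 39 could be tested among 21283 genes in all, and the other two, CA12 and VLDLR, were too dim to measure. The arrays came from SAS cells, a human cell line established from a squamous carcinoma of the tongue. They were transfected at 25 nM with a mimic of miR-629-3p, one of miR-210-3p, one of miR-874-3p, or a negative control RNA (NC). The mimics are synthetic RNAs that act as the mature miRNA, and the study used them to ask what these 3 miRNAs do to cisplatin resistance. Each of the 4 groups had 2 arrays, all groups shared the same cells, culture medium and dose, and the labels name no low-oxygen treatment in any of them. The labels give 48 h from transfection to extraction. They do not say whether the 2 samples of a group were separate cultures, so the p-values measure only the spread between these samples, which may be technical.

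When oxygen is plentiful, the prolyl hydroxylases encoded by EGLN1 and EGLN3 mark the HIF alpha subunits, HIF1A and EPAS1, for destruction through VHL. When oxygen falls, the subunits persist, pair with ARNT and bind the core motif ACGTG or GCGTG near genes for glucose uptake, glycolysis, lactate export, pH control, mitophagy and vessel growth. Tumour cells can run parts of this programme in ordinary culture, and miR-210 is itself a classic HIF-induced miRNA.

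The mature sequences of the transfected miRNAs are printed because their seeds (bases 2 to 8, in capitals) decide which transcripts they pair with. They come from RefSeq on GRCh38.p14, at chr15:70079387-70079408, chr11:568112-568133 and chr5:137647582-137647603, all on the minus strand, and no seed was shared by any of them.
hsa-miR-629-3p: gUUCUCCCaacguaagcccagc
hsa-miR-210-3p: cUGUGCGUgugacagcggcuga
hsa-miR-874-3p: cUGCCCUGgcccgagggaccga
Sequences that pair with these seeds were searched in the probes, which read in the sense of the transcript. The match to the miR-629-3p seed, GGGAGAA, was in 0 of the 54 member probes, against 0.747% of all gene probes. That of miR-210-3p, ACGCACA, was in 0 of 54 as well, against 0.131%. For miR-874-3p the match, CAGGGCA, was in 1 probe, of MXI1, against 0.387%. A probe covers only a small part of a transcript, so these counts say nothing about sites elsewhere in it.

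Promoter windows from RefSeq, 250 bases before to 50 after each start, were held for 37 of the 41 genes, the ones not matched being SLC2A3, BNIP3L, NDRG1 and HILPDA. The motif ACGTG on either strand was in 21 of these 37 genes (56.8%), against 24.9% of 27305 genes. Among the genes called lower under miR-629-3p, described below, it was in 18 of 22 (81.8%), and among the other members tested in 3 of 13 (23.1%). The promoters of CA12 and VLDLR, which were not tested, had no match. The other form of the core, GCGTG on either strand, which cannot overlap ACGTG on the same strand at the same place, was in 40.6% of all genes and 67.6% of the members. It was in 63.6% of the members called lower and in 69.2% of the other members tested. These shares split the members by a measured value and are given as a description with no test, and genes with several starts had more chances of a match. The 40-base stretches below belong to the members with the largest decreases that had ACGTG before the start. Capitals mark ACGTG or its reverse complement CACGT, and in the CACGTG of ANKRD37 and BNIP3 the matches on both strands overlap.
CA9 (chr9:35673888-35673927, plus strand): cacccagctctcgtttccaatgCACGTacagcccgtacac
BNIP3 (chr10:131982028-131982067, minus strand): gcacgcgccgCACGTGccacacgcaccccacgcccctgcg
PGK1 (chrX:78104036-78104075, plus strand): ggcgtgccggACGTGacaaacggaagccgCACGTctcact
PDK1 (chr2:172556050-172556089, plus strand): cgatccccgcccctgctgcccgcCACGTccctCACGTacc
ANKRD37 (chr4:185396669-185396708, plus strand): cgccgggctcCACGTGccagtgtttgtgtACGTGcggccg
DDIT4 (chr10:72273789-72273828, plus strand): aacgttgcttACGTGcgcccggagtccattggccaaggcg
ENO2 (chr12:6914452-6914491, plus strand): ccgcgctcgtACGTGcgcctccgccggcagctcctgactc
MXI1 (chr10:110210108-110210147, plus strand): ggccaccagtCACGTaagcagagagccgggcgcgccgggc
The match nearest the far end of the window lay 18 bases before the start in CA9, 134 in BNIP3, 202 in PGK1, 17 in PDK1, 162 in ANKRD37, 125 in DDIT4, 118 in ENO2 and 113 in MXI1. All these stretches are on GRCh38.p14.

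Signals below are log2 values relative to the 75th percentile of each array, so a value of 0 is the signal of a fairly bright probe, and values of different genes cannot be compared with each other. The share of gene probes well above background differed between the groups. It was 49.8% and 48.3% under miR-629-3p, and 46.6% and 47.6% under miR-210-3p. Under miR-874-3p it was 46.8% and 43.1%, and under NC 42.9% and 42.2%. Outlier spots numbered 87 to 162 per array under miR-629-3p and miR-210-3p, and 297 to 346 under miR-874-3p and NC. The part of these differences in the results was not tested. No spot was saturated. All 12 squamous epithelial markers were detected on every array, as were 2 of 4 markers each of endothelial and blood cells and 1 of 6 of fibroblasts. Against NC, 5 squamous markers were called lower and 1 (DSG3) higher under miR-629-3p, where 7.47% and 9.28% of all genes were. Under miR-210-3p 5 were called lower, where 2.2% of all genes were. Of the others, 1 endothelial and 1 fibroblast marker were called higher under miR-629-3p and 1 fibroblast marker (PDGFRB) under miR-210-3p, and the part of these markers in the results was not tested. On the slide, row 1 held miR-629-3p and miR-210-3p, and row 2 held NC and miR-874-3p. Row and group therefore cannot be told apart when miR-629-3p or miR-210-3p is set against NC. The comparisons of miR-629-3p against miR-210-3p and of miR-874-3p against NC lie within a row, and the former is given beside the main results.

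Under miR-629-3p, 24 of the 39 genes tested (61.5%) were lower than under NC and 1, HIF1A, was higher. The genes called lower included glycolytic enzymes, mitophagy and stress genes, the glucose transporter gene SLC2A3 but not SLC2A1, and CA9, the only pH control gene tested. CA9 encodes the membrane carbonic anhydrase that acidifies the space around hypoxic cells. Its fitted log2 fold change was the largest, at -4.33, although its miR-629-3p signal was at background and gives only the bound stated below. Among all genes tested, 7.47% were lower and 9.28% higher at the same adjusted p of 0.05 (limma, Benjamini-Hochberg over all 21283 genes). The median log2 fold change of the 39 genes was -0.60, against 0.02 over all genes tested. At the study's own threshold, an unadjusted p under 0.05 and a change of at least 2-fold, 10 members were lower and 0 higher, against 1.64% and 3.62% of all genes. The group with the lowest mean of the 4 was miR-629-3p in 30 of the 39 genes. In 18 genes the highest mean was that of miR-874-3p, and in 11 that of NC. The order of the groups was not counted over all genes, so these 3 counts have no share to be set against. The count of lower genes was 12 without miR-629-3p replicate 1, 15 without miR-629-3p replicate 2 and 15 without NC replicate 2.

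Set directly against miR-210-3p, within slide row 1, miR-629-3p gave 19 of the 39 genes lower (48.7%) and again HIF1A higher. Over all genes, 12.7% were lower and 9.83% higher in that comparison. The median log2 fold change of the members was -0.34, against -0.02 over all genes. The 19 included CA9, SLC2A3, BNIP3, KDM3A, PGK1, LDHA, HK2 and SLC16A3. The count fell to between 8 and 9 when any 1 of the 4 arrays compared was left out.

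**Figure D1:**
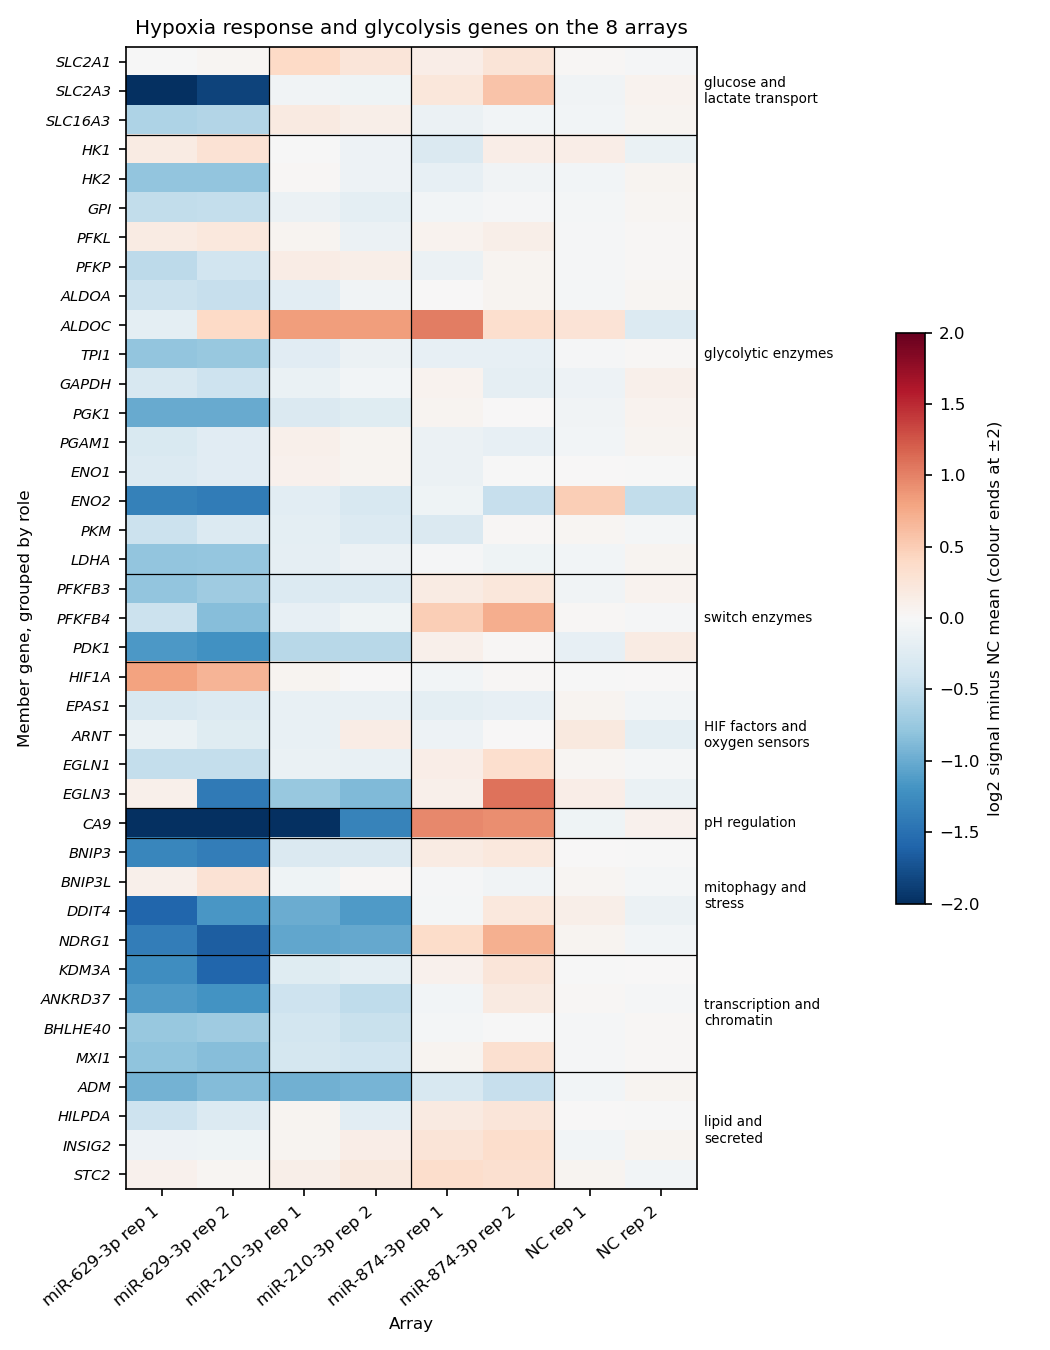
Log2 signal of the 39 tested genes (rows, grouped by role) on each of the 8 arrays (columns), as the difference from the mean of the 2 NC arrays; blue is lower and red higher, and the colour scale ends at ±2. The 2 miR-629-3p columns are blue through most roles with HIF1A red, while the miR-210-3p columns are deepest blue at CA9, DDIT4, NDRG1 and ADM.

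Of the 5 HIF factors and oxygen sensors tested, 1 rose, 2 fell and 2 did not pass the test under miR-629-3p. Of all genes, 9.28% were higher and 7.47% lower. HIF1A, the oxygen-regulated alpha subunit of HIF-1 (probe at chr14:62214845-62214904, hg19), read 5.48 and 5.37 under miR-629-3p and 4.68 and 4.68 under NC. It read 4.73 and 4.69 under miR-210-3p and 4.62 and 4.71 under miR-874-3p. Both miR-629-3p arrays lay above all 6 others, which were close together. The log2 fold change against NC was 0.74 (SE 0.08, adjusted p = 0.00623, limma), and against miR-210-3p 0.71 (adjusted p = 0.00526). A second HIF1A probe further upstream (chr14:62211472-62211531) gave 0.70 (adjusted p = 0.0243 in the limma fit of all probes). HIF1A was the only member called higher in either comparison.

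EPAS1 encodes HIF-2 alpha, the second oxygen-regulated subunit. Its values were 6.86 and 6.90 under miR-629-3p, 7.03 and 7.02 under miR-210-3p, 6.97 and 7.01 under miR-874-3p, and 7.23 and 7.12 under NC. The miR-629-3p arrays were the lowest, by a small margin, and the log2 fold change against NC was -0.30 (SE 0.07, adjusted p = 0.045, limma). This call was lost in 13 of 21 alternatives, 7 of which kept all arrays, at an adjusted p of up to 0.194. Against miR-210-3p the difference was -0.15 (adjusted p = 0.194). ARNT, the constitutive partner of both subunits, read -1.70 and -1.81 under miR-629-3p, -1.72 and -1.43 under miR-210-3p, -1.67 and -1.56 under miR-874-3p, and -1.37 and -1.77 under NC, groups that overlapped (log2 fold change -0.18, adjusted p = 0.484).

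Among the oxygen sensors, EGLN1, the main prolyl hydroxylase and itself a HIF target, read 3.09 and 3.07 under miR-629-3p, 3.42 and 3.41 under miR-210-3p, 3.69 and 3.90 under miR-874-3p, and 3.60 and 3.52 under NC. It was lower under miR-629-3p than on any other array, with a log2 fold change against NC of -0.48 (SE 0.09, adjusted p = 0.0243, limma), a call lost in 8 of 21 alternatives. The direct comparison against miR-210-3p gave -0.34 and missed the threshold (adjusted p = 0.0502). EGLN3, a strongly hypoxia-inducible relative, read -0.35 and -1.86 under miR-629-3p, -1.22 and -1.34 under miR-210-3p, -0.36 and 0.63 under miR-874-3p, and -0.32 and -0.59 under NC. Its replicates differed by as much as the groups, and no comparison was called.

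CA9 showed the largest fitted change of the members (probe at chr9:35677817-35679204, hg19). It read -0.45 and -0.29 under NC and 0.59 and 0.55 under miR-874-3p. On the miR-210-3p arrays it read -2.45 and -1.70, and under miR-629-3p, where it did not stand well above background, -3.84 and -5.57. The 4 groups did not overlap. Because the miR-629-3p signal was at background, the arrays give only a bound, at least 9.8-fold lower than NC (adjusted p = 0.0107, limma) and at least 3.01-fold lower than miR-210-3p (adjusted p = 0.027, a call lost in 7 of 20 alternatives). For such a bound, the signal of each dim array was raised to that of the dimmest probe detected on it, where the gene's own was below. Without NC replicate 2 the comparison against NC had an adjusted p of 0.0555. Under miR-210-3p the log2 fold change against NC was -1.70 (SE 0.57, adjusted p = 0.134). CA12, a relative of CA9, was measured on too few arrays to be tested.

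The transporters at the cell surface moved unequally. SLC2A3 encodes GLUT3, a high-affinity glucose transporter, and was one of the genes the study picked from these arrays as putative targets, so its direction is not independent evidence. It read -2.80 and -2.57 under miR-629-3p and between -0.80 and -0.15 on the other 6 arrays (-0.78 and -0.80 under miR-210-3p, -0.49 and -0.15 under miR-874-3p, -0.78 and -0.65 under NC). The miR-629-3p arrays stood well below all others, and the log2 fold change was -1.97 against NC (SE 0.14, adjusted p = 0.00326, limma) and -1.89 against miR-210-3p (adjusted p = 0.00269). A dimmer SLC2A3 probe gave -1.07 and was not called (adjusted p = 0.108). SLC16A3, the lactate exporter MCT4, read 8.11 and 8.13 under miR-629-3p against 8.66 and 8.78 under NC, and fell by 0.60 on the log2 scale (adjusted p = 0.00998, limma). SLC2A1, which encodes GLUT1, the best-known glucose transporter of hypoxic cells, read 6.14 and 6.18 under miR-629-3p and 6.17 and 6.12 under NC. Its log2 fold change was 0.02 (SE 0.09, adjusted p = 0.909).

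In glycolysis itself, 8 of the 15 enzymes tested (53.3%) fell under miR-629-3p and none rose, against 7.47% and 9.28% of all genes. Their median log2 fold change was -0.45. Against miR-210-3p, 9 of the 15 (60%) were lower, where 12.7% of all genes were. PGK1 is the first enzyme of the pathway to return ATP (probe at chrX:77381462-77381521, hg19). It read 6.04 and 6.04 under miR-629-3p, 6.75 and 6.81 under miR-210-3p, 7.10 and 7.06 under miR-874-3p, and 6.98 and 7.11 under NC. The miR-629-3p arrays lay far below the rest, and the log2 fold change was -1.005 (SE 0.08, adjusted p = 0.00359, limma), or 2.01-fold.

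LDHA, which turns pyruvate into lactate, read 7.29 and 7.31 under miR-629-3p and 7.90 to 8.13 on the other arrays, and its log2 fold change was -0.78 (SE 0.08, adjusted p = 0.00573, limma). A second probe under the LDHA name, which the array annotation places on chromosome 9 rather than 11, gave -0.82. HK2, the inducible hexokinase, fell from 4.26 and 4.37 to 3.53 and 3.53, by 0.78 (adjusted p = 0.0064), and TPI1, triosephosphate isomerase, fell from 8.18 and 8.24 to 7.42 and 7.45, by 0.77 (adjusted p = 0.00564). Smaller decreases were called for GPI (-0.49), PFKP (-0.46) and ALDOA (-0.45). ENO2, the neuronal enolase, read -0.54 and -0.59 under miR-629-3p, 0.59 and 0.50 under miR-210-3p, and 0.73 and 0.36 under miR-874-3p, but its NC arrays differed widely at 1.30 and 0.32. Its log2 fold change was -1.37 (SE 0.32, adjusted p = 0.0405, limma), and became -0.88 without NC replicate 1 (adjusted p = 0.051). Against miR-210-3p it was -1.11 and missed the threshold (adjusted p = 0.0584).

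The glycolytic genes that did not pass the test against NC included HK1 and PFKL, isoforms of hexokinase and phosphofructokinase that many cells express constitutively. HK1 (0.23) and PFKL (0.19) had log2 fold changes above 0, and PGAM1 (-0.26), ENO1 (-0.25), PKM (-0.35) and GAPDH (-0.37) below it. ALDOC was well above background on neither NC array and on 1 miR-629-3p array, so no fold is given for it. PGAM1 and ENO1 were called lower against miR-210-3p, at -0.35 and -0.32. GAPDH, an enzyme of the pathway often used to scale other genes, read 8.91 and 8.80 under miR-629-3p, 9.09 and 9.16 under miR-210-3p, 9.29 and 9.05 under miR-874-3p, and 9.12 and 9.33 under NC. Both miR-629-3p arrays lay below all 6 others, but the difference did not pass the test (SE 0.12, adjusted p = 0.0921, limma). Of 12 other reference genes, 3 were called lower under miR-629-3p (B2M, HPRT1 and PPIA) and 1 higher (GUSB), against 7.47% and 9.28% of all genes. Their median log2 fold change was -0.16.

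The 3 enzymes that switch carbon flow all fell under miR-629-3p, where 7.47% of all genes were called lower. PDK1, a kinase that inhibits pyruvate dehydrogenase and so the conversion of pyruvate to acetyl-CoA, read 1.53 and 1.46 under miR-629-3p, 2.12 and 2.13 under miR-210-3p, 2.77 and 2.69 under miR-874-3p, and 2.51 and 2.84 under NC. Its levels formed 3 steps, with miR-629-3p lowest, miR-210-3p next, and miR-874-3p and NC overlapping. Against NC its log2 fold change was -1.18 under miR-629-3p (SE 0.12, adjusted p = 0.00614, limma) and -0.55 under miR-210-3p (adjusted p = 0.0568). PFKFB3 and PFKFB4, which make the activator of phosphofructokinase, fell by 0.75 (adjusted p = 0.00634) and 0.64 (adjusted p = 0.0479). Against miR-210-3p, PDK1 (-0.62, adjusted p = 0.0196, limma) and PFKFB3 (-0.47, adjusted p = 0.0134) were lower, while PFKFB4 missed the threshold (-0.52, adjusted p = 0.0679).

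**Figure D2:**
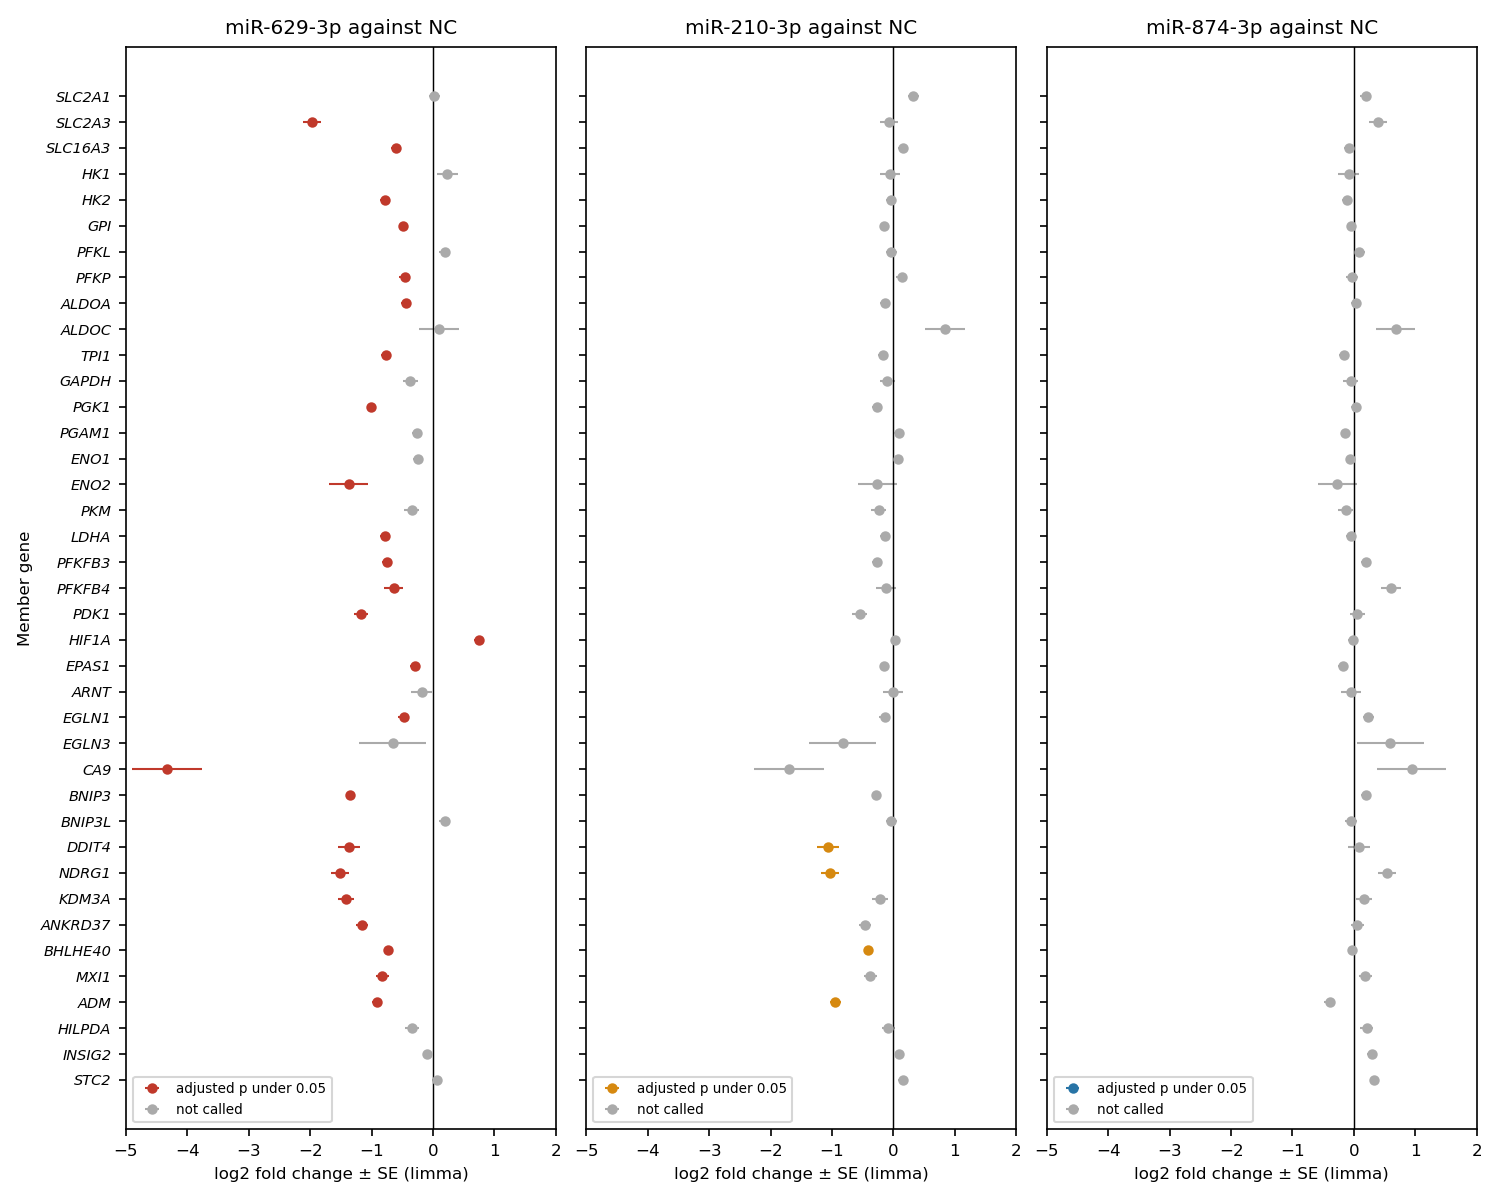
Log2 fold change against NC (x axis, with the standard error from limma as bars) of the 39 tested genes (y axis, by role) with each mimic; coloured points passed an adjusted p of 0.05 and grey points did not. Coloured points number 25 under miR-629-3p, 4 under miR-210-3p and 0 under miR-874-3p.

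Among the 4 genes of mitophagy and stress, BNIP3, DDIT4 and NDRG1 fell under miR-629-3p, and DDIT4 and NDRG1 also under miR-210-3p. Of all genes, 7.47% were called lower under miR-629-3p and 2.2% under miR-210-3p. BNIP3, a mitophagy receptor induced by HIF-1, read 5.92 and 5.84 under miR-629-3p, 6.94 and 6.93 under miR-210-3p, 7.39 and 7.44 under miR-874-3p, and 7.23 and 7.22 under NC (probe at chr10:133781881-133781940, hg19). The 4 groups did not overlap and the replicates were close, but only miR-629-3p was called against NC. Its log2 fold change was -1.35 (SE 0.07, adjusted p = 0.00123, limma), the smallest adjusted p of the members. Against miR-210-3p it was -1.06 (adjusted p = 0.00214). The changes against NC were -0.29 for miR-210-3p (adjusted p = 0.0666) and 0.19 for miR-874-3p (adjusted p = 0.259).

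Its relative BNIP3L had 3 probes that disagreed. The brightest read 5.39 and 5.58 under miR-629-3p and 5.34 and 5.25 under NC, a log2 fold change of 0.19 (adjusted p = 0.218, limma). A second read 3.29 and 3.32 against 5.22 and 4.19, a change of -1.40 (adjusted p = 0.0416 in the limma fit of all probes), and the dimmest read 0.53 and 0.43 against 1.33 and 1.45, a change of -0.91 (adjusted p = 0.00826). The direction of BNIP3L under miR-629-3p therefore depends on the probe. For the other members with several kept probes (HIF1A, INSIG2, LDHA, MXI1, PFKFB3, PFKP, PGAM1 and SLC2A3), all probes of a gene had the same sign under miR-629-3p.

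DDIT4, an inhibitor of mTORC1 induced by low oxygen and other stresses, read 4.42 and 4.84 under miR-629-3p and 5.01 and 4.87 under miR-210-3p, against 6.12 and 5.89 under NC and 5.97 and 6.21 under miR-874-3p. All 4 arrays of slide row 1 lay below all 4 of row 2. The log2 fold change against NC was -1.37 under miR-629-3p (SE 0.18, adjusted p = 0.0104, limma) and -1.06 under miR-210-3p (SE 0.18, adjusted p = 0.0331), and the difference between the mimics missed the threshold (-0.31, SE 0.18, adjusted p = 0.261). Without miR-629-3p replicate 1 the first of these had an adjusted p of 0.053.

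NDRG1, a stress-responsive gene long used as a hypoxia marker, had the same arrangement. It read 6.08 and 5.81 under miR-629-3p, 6.44 and 6.45 under miR-210-3p, 7.83 and 8.18 under miR-874-3p, and 7.52 and 7.42 under NC. It fell by 1.52 under miR-629-3p (SE 0.15, adjusted p = 0.00575, limma) and by 1.03 under miR-210-3p (SE 0.15, adjusted p = 0.0242), a difference between the mimics of -0.49 that missed the threshold (adjusted p = 0.0641). For NDRG1 and DDIT4, as for every member in these comparisons against NC, the slide row changes together with the group.

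All 4 genes of transcription and chromatin fell under miR-629-3p, and all 4 were also lower than under miR-210-3p. Of all genes, 7.47% were called lower against NC and 12.7% against miR-210-3p. KDM3A, a histone H3K9 demethylase that HIF-1 induces, read -0.54 and -0.89 under miR-629-3p, 0.46 and 0.51 under miR-210-3p, 0.78 and 0.94 under miR-874-3p, and 0.69 and 0.71 under NC. Its log2 fold change was -1.41 (SE 0.13, adjusted p = 0.00547, limma), and the values of the other groups lay close together by comparison. ANKRD37, a small ankyrin-repeat protein and HIF-1 target, read 1.20 and 1.14 against 2.34 and 2.31 under NC, 1.92 and 1.82 under miR-210-3p and 2.27 and 2.50 under miR-874-3p, and its change under miR-629-3p was -1.16 (SE 0.10, adjusted p = 0.00494).

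MXI1, a repressor that opposes MYC, read 1.09 and 1.03 under miR-629-3p, 1.53 and 1.49 under miR-210-3p, 1.94 and 2.21 under miR-874-3p, and 1.87 and 1.90 under NC. Its change under miR-629-3p was -0.83 (SE 0.10, adjusted p = 0.00998, limma), and a second probe gave -1.15. Against miR-210-3p the change was -0.45 (adjusted p = 0.0335), a call lost in 10 of 21 alternatives. BHLHE40, a repressor of the circadian clock that hypoxia induces, read 0.90 and 0.95 under miR-629-3p, 1.29 and 1.21 under miR-210-3p, 1.62 and 1.65 under miR-874-3p, and 1.64 and 1.68 under NC. Both mimics of slide row 1 were below NC, by 0.74 under miR-629-3p (adjusted p = 0.00564) and 0.41 under miR-210-3p (adjusted p = 0.0347), and miR-629-3p was below miR-210-3p (-0.33, adjusted p = 0.0261, a call lost in 7 of 21 alternatives).

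Of the secreted and lipid genes, ADM was the only one of the 4 tested that was called. Of all genes, 7.47% were called lower under miR-629-3p and 2.2% under miR-210-3p. It encodes adrenomedullin, a vasodilator peptide. ADM read 4.92 and 5.00 under miR-629-3p, 4.91 and 4.93 under miR-210-3p, 5.54 and 5.40 under miR-874-3p, and 5.81 and 5.92 under NC. It fell by 0.91 under miR-629-3p (SE 0.09, adjusted p = 0.00564, limma) and by 0.95 under miR-210-3p (SE 0.09, adjusted p = 0.00976), and the mimics differed by 0.04 (SE 0.09, adjusted p = 0.794). The miR-874-3p arrays lay between, at -0.39 against NC (adjusted p = 0.125). HILPDA, a lipid droplet protein, gave -0.34 under miR-629-3p (adjusted p = 0.0869), and INSIG2 and STC2 gave -0.09 and 0.06. VLDLR was well above background on 1 array at most and could not be tested.

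**Figure D3:**
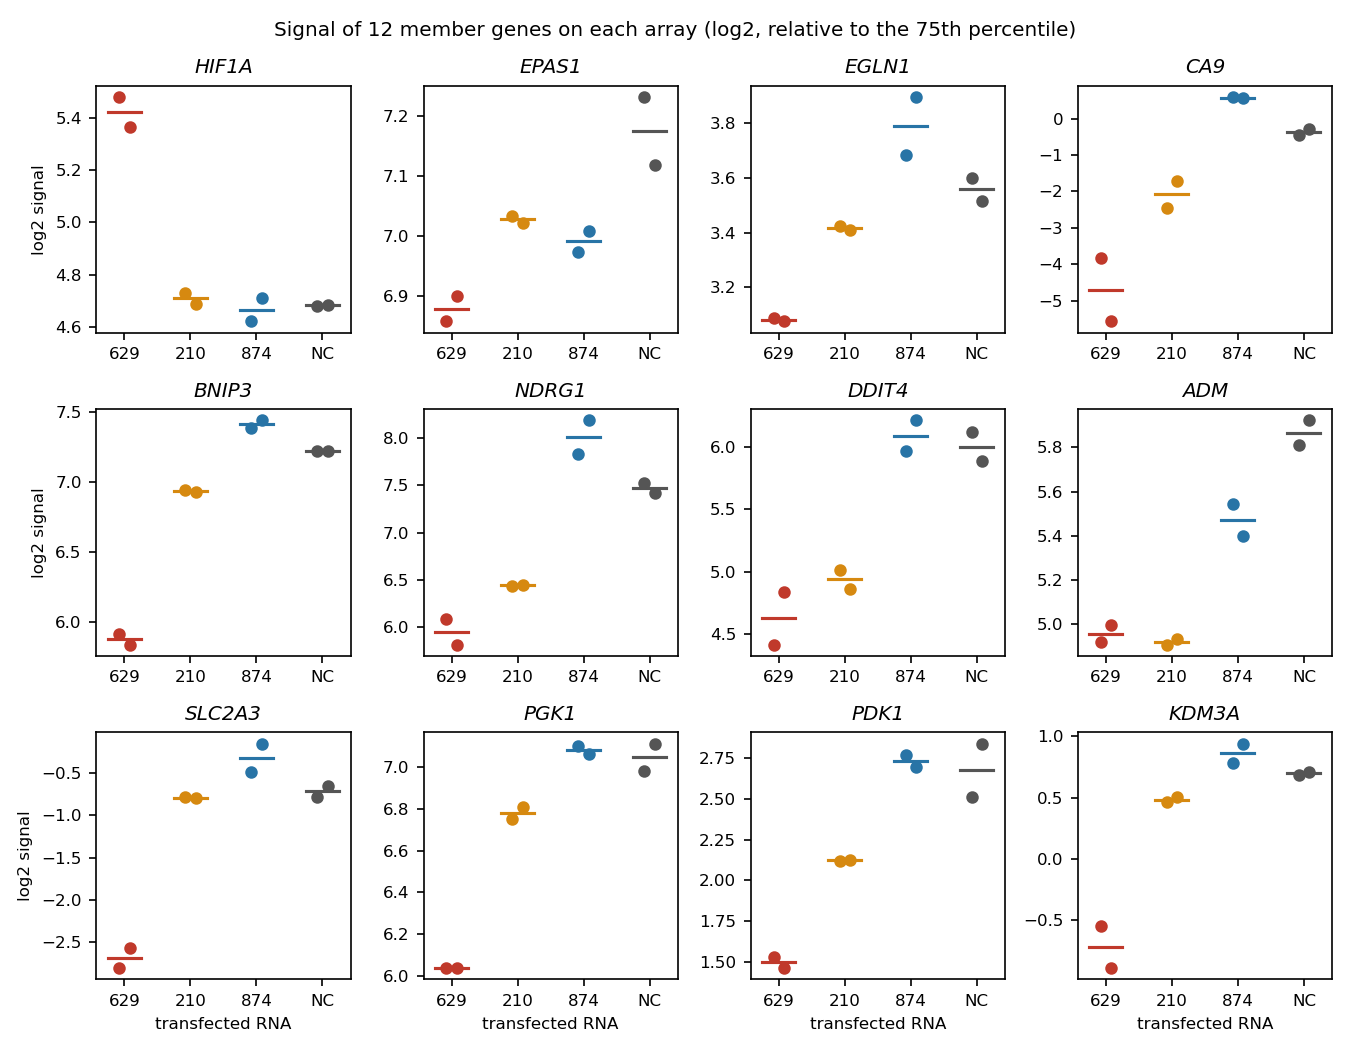
Log2 signal, relative to the 75th percentile of the array (y axis, a different range in each panel), of 12 genes on the 2 arrays of each group (points, with the group mean as a line), labelled by the number of the miRNA or NC. HIF1A has its highest values under miR-629-3p and the others, except ADM, their lowest mean, and ADM lies at 4.91 to 5.00 on all arrays of both miR-629-3p and miR-210-3p.

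Under miR-210-3p, 4 of the 39 genes were lower than under NC (10.3%) and 0 higher, the 4 being ADM, DDIT4, NDRG1 and BHLHE40 described above. Of all genes tested, 2.2% were lower and 3.85% higher. The median log2 fold change of the members was -0.14, against 0.05 over all genes, and at an unadjusted p under 0.05 there were 11 lower and 2 higher members, against 9.5% and 16.5% of all genes. The 2 higher were SLC2A1 and ALDOC. ALDOC was well above background on neither NC array and was kept only through the miR-210-3p arrays, so its place in this count is not evidence of a rise. At the study's threshold 3 members were lower and 0 higher, against 1.15% and 1.99% of all genes. None of the 15 glycolytic enzymes, 3 transporters or 3 switch enzymes passed the test, and the log2 fold changes were -0.27 for PGK1, -0.14 for LDHA, -0.04 for HK2 and -0.08 for SLC2A3. The calls of DDIT4 and BHLHE40 were lost in 10 of 21 alternatives each, that of NDRG1 in 9 and that of ADM in 5. The number of members called lower was 0 without either of the miR-210-3p replicates, 0 with no filter on detection, and 9 with normexp background correction or with a trend in eBayes.

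Under miR-874-3p, limma called 0 of the 39 genes lower and 0 higher, against 0.207% and 0.216% of all genes. Without adjustment, 8 were higher and 2 lower at a p under 0.05, against 7.86% and 8.52% of all genes. The median log2 fold change of the members was 0.03, against -0.01 over all genes. At the study's threshold 0 members were called, against 0.507% of all genes lower and 1.51% higher. The values farthest from NC were those of CA9 (0.94, adjusted p = 0.463), PFKFB4 (0.61), EGLN3 (0.59) and NDRG1 (0.54, adjusted p = 0.178), leaving out ALDOC, which was well above background on neither NC array and on 1 miR-874-3p array. This comparison lies within slide row 2. By limma's F test across the 4 groups, 24 of the 39 members differed, against 25.2% of all genes.

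**Figure D4:**
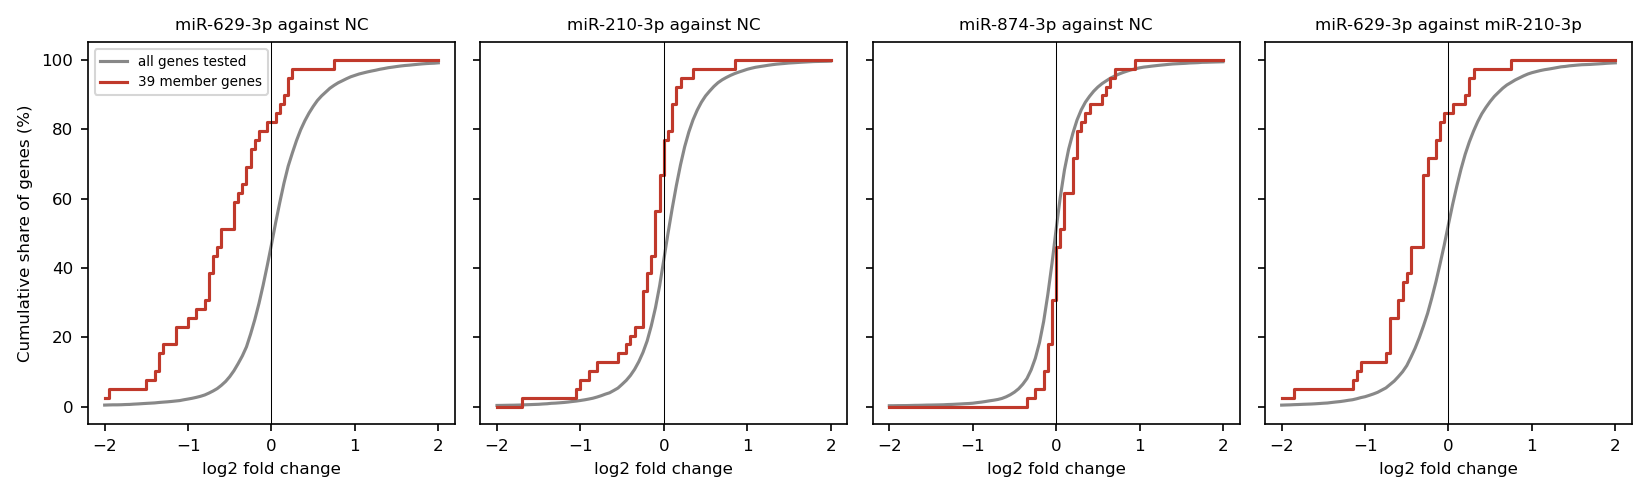
Cumulative share of genes (y axis, in percent) up to each log2 fold change (x axis, from -2 to 2) for all genes tested (grey) and the 39 members (red) in 4 comparisons; CA9 lies beyond the left end in 2 of the panels. The red curve is far to the left of the grey one for miR-629-3p against NC (medians -0.60 and 0.02) and against miR-210-3p (-0.34 and -0.02), and close to it for miR-874-3p.

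Further HIF targets outside the 41 genes were read from another list of 44, of which 38 could be tested. This list, like the members, was chosen with earlier results of these data known, so it is not independent evidence. Under miR-629-3p, 20 were lower (52.6%) and 2 higher (5.26%) than under NC, against 7.47% and 9.28% of all genes. The median log2 fold change was -0.47, against 0.02 over all genes. Against miR-210-3p, 20 were lower and 2 higher as well, where 12.7% and 9.83% of all genes were. The median was -0.41, against -0.02 over all genes. ANGPTL4, a secreted inhibitor of lipoprotein lipase, read -1.14 and -1.20 under miR-629-3p, 3.22 and 3.03 under miR-210-3p, 2.42 and 2.04 under miR-874-3p, and 2.64 and 2.46 under NC. This was a decrease of 3.72 against NC (log2 fold change -3.72, SE 0.15, adjusted p = 0.000825, limma), while miR-210-3p stood above NC by 0.58 without passing the test (adjusted p = 0.0813). PPFIA4, a liprin scaffold protein, did not stand well above background under miR-629-3p, so that it was lower than NC by at least 5.93-fold. STC1, counted as lower in both comparisons, was also at background under miR-629-3p. It was well above background on 1 NC array and was kept only through miR-874-3p, so no fold is given for it. IGFBP3, which binds insulin-like growth factors, read 1.62 and 1.45 under miR-629-3p, 2.28 and 2.47 under miR-210-3p, 4.55 and 4.34 under miR-874-3p, and 3.73 and 4.14 under NC. It fell by 2.40 under miR-629-3p (adjusted p = 0.00303) and by 1.56 under miR-210-3p (adjusted p = 0.0128). The collagen prolyl hydroxylases P4HA1 (-1.41) and P4HA2 (-0.999) were also lower under miR-629-3p.

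VEGFA, the main vessel growth factor of the HIF response, went the other way. It read 4.36 and 4.25 under miR-629-3p, 4.30 and 4.26 under miR-210-3p, 3.95 and 4.04 under miR-874-3p, and 3.83 and 3.89 under NC. It was higher than under NC by 0.45 under miR-629-3p (adjusted p = 0.0192, limma) and by 0.42 under miR-210-3p (adjusted p = 0.0408). The second call was lost in 13 of 21 alternatives, 7 of which kept all arrays, at an adjusted p of up to 0.199, and the first in 8. The mimics differed by 0.02 (SE 0.08, adjusted p = 0.864). The other HIF target called higher under miR-629-3p was MXD1 (0.77). Under miR-210-3p, 5 of the 38 were lower (IGFBP3, KCTD11, TMEM45A, GYS1 and, just inside the threshold, ANKZF1) and 1, VEGFA, higher. Of all genes, 2.2% were lower and 3.85% higher under miR-210-3p. Under miR-874-3p 0 of the 38 were called, against 0.207% of all genes lower and 0.216% higher.

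**Figure D5:**
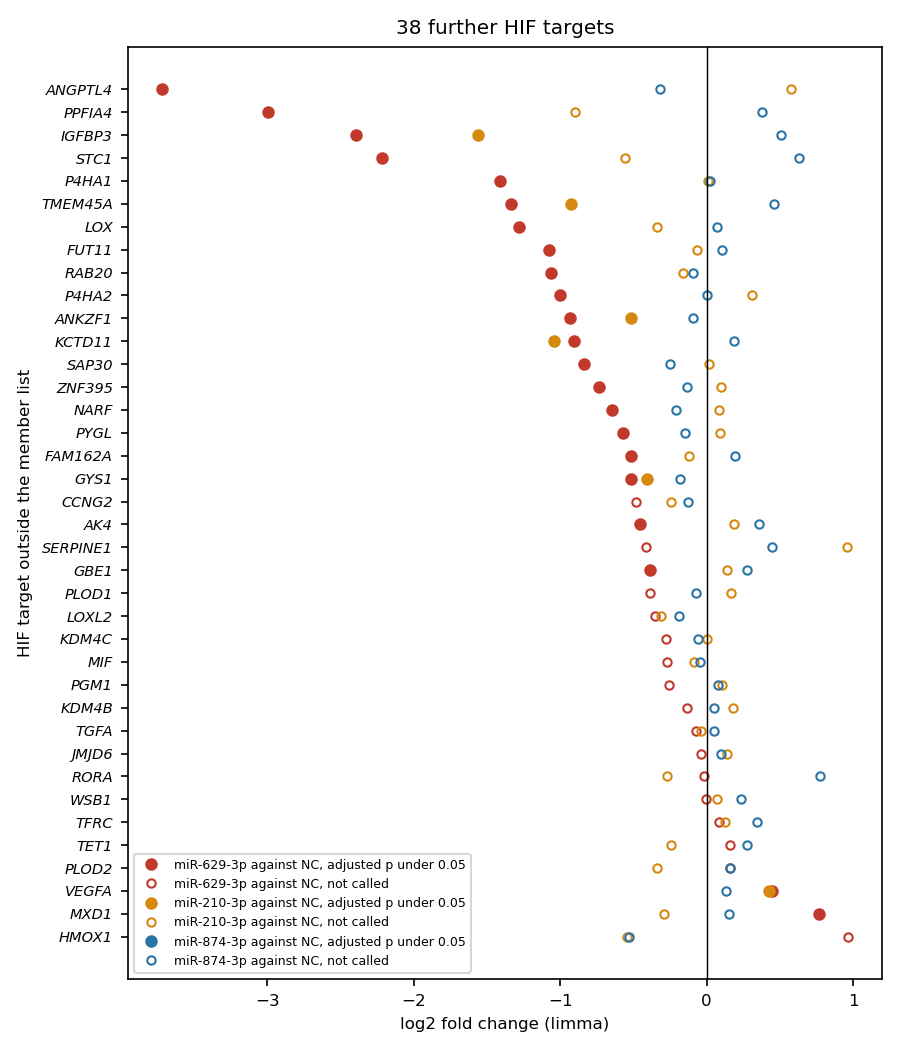
Log2 fold change against NC (x axis) of the 38 further HIF targets (y axis, ordered by the change under miR-629-3p) for the 3 mimics in 3 colours; filled points passed an adjusted p of 0.05 in limma and open points did not. ANGPTL4 is the lowest under miR-629-3p at -3.72, and VEGFA is higher under both miR-629-3p and miR-210-3p.

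Among 13 other regulators of the pathway tested, 3 were higher (23.1%) and 2 lower (15.4%) under miR-629-3p. Of all genes, 9.28% were higher and 7.47% lower. The coactivators CREBBP and EP300, acetyltransferases that HIF recruits to its targets, rose by 1.04 (SE 0.09, adjusted p = 0.00537, limma) and 0.60 (adjusted p = 0.0266). CREBBP read 1.80 and 1.62 under miR-629-3p and between 0.63 and 1.09 on the other 6 arrays. ARNT2, a relative of ARNT, rose by 0.78 (adjusted p = 0.0421). The calls of ARNT2 and EP300 were lost in 8 and 9 of 21 alternatives, and their values came down to 0.35 and 0.36 with normexp background correction. Against miR-210-3p, 5 of the 13 were higher (38.5%) and 2 lower (15.4%), where 9.83% and 12.7% of all genes were. In that comparison CREBBP was higher by 0.94 (adjusted p = 0.00477, limma), while EP300 (0.34, adjusted p = 0.0961) and ARNT2 (0.19, adjusted p = 0.495) missed the threshold. Against NC, SIAH2 and GPD1L fell by 0.49 and 0.35 under miR-629-3p, the call of GPD1L being lost in 9 of 21 alternatives. VHL, the ubiquitin ligase subunit that recognises hydroxylated HIF, read 5.92 and 5.97 under miR-629-3p and 5.75 and 5.72 under NC (log2 fold change 0.21, adjusted p = 0.113). It was called higher than under miR-210-3p (0.30, adjusted p = 0.0391, limma), a call lost in 9 of 21 alternatives. HIF1AN, the asparaginyl hydroxylase that limits HIF activity, gave 0.07 against NC (adjusted p = 0.676). GPD1L, a reported target of miR-210, read 1.49 and 1.53 under miR-210-3p and 2.49 and 2.50 under NC, and was the only regulator called under miR-210-3p (log2 fold change -0.98, SE 0.07, adjusted p = 0.00635).

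Other genes of glycolysis and pyruvate use, 21 of 31 tested, are given for comparison. Under miR-629-3p, 3 were higher (14.3%) and 1 lower (4.76%) than under NC, close to the 9.28% and 7.47% of all genes. The median log2 fold change was -0.07, against 0.02 over all genes. The muscle enolase ENO3 rose by 0.56 (adjusted p = 0.0156, limma), PFKFB2 by 0.35 and MPC1, a subunit of the mitochondrial pyruvate carrier, by 0.36, while PGM2, a phosphopentomutase, fell by 0.50 (adjusted p = 0.0165). The calls of ENO3, MPC1 and PGM2 were lost in 6, 9 and 4 of 21 alternatives. Under miR-210-3p and miR-874-3p 0 of the 21 were called, with 5 and 3 at an unadjusted p under 0.05 in either direction, against 26% and 16.4% of all genes.

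Background correction by normexp, which draws in the changes of dim probes, gave smaller log2 fold changes under miR-629-3p for the dimmer members. They were -0.99 for CA9, -0.49 for SLC2A3, -0.86 for KDM3A and -0.87 for ENO2 against NC, and -2.41 and -0.64 for ANGPTL4 and PPFIA4. With that correction all 6 were still called lower.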

How the data were processed

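One-colour Agilent arrays of 8 SAS cell samples were analysed, in the 4 groups the sample labels give. For each array the authors deposited scanner output from Agilent Feature Extraction 11.5.1.1. Its intensity values are background-subtracted processed signals per spot, with flags that mark outlying, saturated and background-level spots, and no scaling between arrays was applied. A table of log2 values was deposited as well. Its scale is not stated, and comparison with the scanner values showed log2 signal from which close to the 75th percentile had been taken (all probes within 0.05 after an offset of -0.0488 to 0.0039). On extraction time, kit and cell name the labels and the paper disagree, and the labels are followed here.

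Control spots and 87 to 346 outlier spots per array were left out. The log2 signals of a probe's spots were averaged, and the array's 75th percentile over gene probes was subtracted. A probe was kept if all 8 arrays gave a value and if at least 1 group had both its arrays well above background, and each gene was read from its brightest kept probe (21283 of 43317 names). The limma package (3.58.1, under R 4.3.3) was fitted to all 8 arrays together by lmFit and eBayes, with no covariate (4 residual and 1.68 prior degrees of freedom), two-sided, with p-values adjusted by Benjamini-Hochberg across every gene tested. The fit was tested on simulated data. Precision is limited by the number of arrays.

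The members and the further gene lists were chosen with earlier results of these data known. Given on every array are the 12 members per mimic with the largest called change and both arrays beyond both NC arrays, the HIF subunits, EGLN1, EGLN3 and GAPDH. From the further lists, VEGFA, ANGPTL4, VHL, HIF1AN and the 3 largest called changes per list and mimic are named. Other genes named, among them SLC2A1, BNIP3L, LDHA and P4HA1, were chosen after their values were seen. Probe coordinates are those of the array annotation on hg19.

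Alternatives were normexp background correction (offset 50), quantile normalization, median centring, the deposited log2 values, outlier spots kept, signals floored at the dimmest detected one, all probes tested, only probes detected on all 8 arrays, the mean of a gene's kept probes, a trend in eBayes, a block for the replicate number, a fit of only the 2 groups compared, the t-test and ANOVA of the methods, and leaving out each array in turn. Whole-transcript searches for seed sites were not run.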

Additional observations from a re-analysis of the deposited data

How the results depend on the processing

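Over up to 21 alternatives, none of the 55 values of named genes reversed its sign, 914 kept their call and 237 lost it. The count of members lower under miR-629-3p (against NC) stayed between 20 and 29 under every alternative that kept all arrays except the methods' t-test, which called 0 lower and 0 higher after Benjamini-Hochberg adjustment (24 lower at an unadjusted p under 0.05, against 12.7% of all genes). With single arrays left out it ranged from 12 to 26, and the count across the 4 groups ranged from 10 to 24. The remaining array of a group is then assumed to vary like the other groups. The count lower under miR-629-3p than under miR-210-3p was 9 with no filter on detection, 6 by the t-test and 8 to 22 with single arrays left out. The count higher was 2 with normexp and with quantile normalization and 0 by the t-test. For miR-210-3p against NC, the count lower was 9 with normexp and with a trend in eBayes, 7 with detection on all 8 arrays, 1 with only the 2 groups compared, 0 with no filter and by the t-test, and 0 to 6 with single arrays left out. The count higher was 1 with normexp and with a trend. For miR-874-3p, normexp gave 2 higher and a trend gave 1 lower. The causes of these moves were not tested. The genes of the members and further lists called lower but at background on both miR-629-3p arrays, CA9, PPFIA4 and STC1, have no measured fold there.

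Same-numbered replicates showed no large shared deviation (correlations of their deviations over genes from -0.106 to 0.034 over the 6 pairs of groups). These correlations cannot exclude that the numbers pair the samples, as a small shared effect, or one in few genes, could go unseen. With the replicate number as a block, 21 members were lower and 1 higher under miR-629-3p, 1 was lower under miR-210-3p, and 12 were lower under miR-629-3p than under miR-210-3p.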
